A study of Homo sapiens with 4 samples.

Results

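BCL6, BACH2, IRF8, IRF4, PRDM1 and XBP1 regulate the course of an activated B cell, and cohesin and CTCF binding and contacts at these 6 genes were examined in the HG00731 cell line. They were chosen by name from the GENCODE release 44 annotation of hg38, as 6 of 19970 protein-coding genes on chromosomes 1 to 22 and X. For each gene, the data are the SMC1 and CTCF peaks with a summit in the gene body or within 200 kb of the gene start, and the loops with an anchor within 5 kb of a transcript start. HG00731 is a lymphoblastoid cell line (LCL), that is, B cells transformed with Epstein-Barr virus. HiChIP joins DNA ends that lie close together in the nucleus and pulls down those bound by a chosen protein, so that it gives both binding sites (peaks) and contacts between sites (loops). SMC1, a cohesin subunit, was pulled down after dual cross-linking with formaldehyde (FA) and ethylene glycol bis(succinimidyl succinate) (EGS), and CTCF after FA alone. Each target had 2 biological replicates, which the authors pooled into 1 peak list and 1 loop list per target. No value per replicate is given in them, so no difference below could be set against a spread between replicates, and every interval covers counting error only. Antibody and fixation changed together, and by the study's numbers SMC1 also had more reads in total. The parts of antibody, fixation and depth in any difference between the targets cannot be told apart. All 4 samples came from 1 line, with no untreated or input control, and the lists hold no expression values against which the labelled cell type could be checked.

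In a germinal centre, B cells divide and mutate their antibody genes, and those that leave it as plasma cells secrete antibody. BCL6 is a repressor that germinal centre B cells require, BACH2 holds back the plasma cell programme, and IRF8 takes part in B cell and myeloid development. IRF4 is needed for plasma cells, PRDM1 encodes Blimp-1, the repressor that shuts down the B cell programme in them, and XBP1 drives the secretory machinery. Cohesin extrudes chromatin loops and is halted at sites bound by CTCF, which reads a motif with a direction.

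Some sites under tall CTCF peaks of these genes held a CTCF motif by its letters and lay at a loop anchor. A choice of them is shown as 100 bases of hg38 around the match, on the plus strand. Capitals mark a match to the motif's core letters (CC, 3 bases of any kind, AG, 2 bases of any kind, GGC) or to their reverse complement. The first lay at the far anchor of the BACH2 loops (chr6:90479463-90479562, between genes, match on the minus strand), the next at the far anchor of the XBP1 loops (chr22:28829515-28829614, an intron of the long noncoding RNA ENSG00000226471, minus strand), and the others in an intron of BCL6 (chr3:187740988-187741087, plus strand) and at an upstream anchor of IRF4 (chr6:217199-217298, between genes, plus strand).
BACH2 far anchor: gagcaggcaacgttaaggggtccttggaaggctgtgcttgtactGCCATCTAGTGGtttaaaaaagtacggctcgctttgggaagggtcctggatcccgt
XBP1 far anchor: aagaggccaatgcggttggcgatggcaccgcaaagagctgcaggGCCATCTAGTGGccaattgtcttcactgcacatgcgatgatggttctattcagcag
BCL6 intron: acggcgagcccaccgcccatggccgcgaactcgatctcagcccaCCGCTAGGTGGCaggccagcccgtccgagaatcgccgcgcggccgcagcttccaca
IRF4 upstream anchor: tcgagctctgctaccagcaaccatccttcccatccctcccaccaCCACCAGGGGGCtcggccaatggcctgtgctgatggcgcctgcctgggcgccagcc
The BACH2 and XBP1 sites held the same 12 letters on the same strand, although they lie on chromosomes 6 and 22. Their CTCF peaks had a −log10 q of 283 and 347, where q is the false discovery rate of the peak caller. A CTCF peak of 224 in the IRF8 window also held a match, on the minus strand, and is not printed.

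At IRF8, the tallest CTCF peaks at the far anchors of its loops held no match to these letters in the 300 bases centred on the summit, which says only that the letters are not in that window. The highest of these peaks lay upstream (chr16:85821434-85821533 around the summit, between genes) and the next downstream (chr16:86016459-86016558, between genes). Here the capital marks the summit base.
IRF8 upstream anchor: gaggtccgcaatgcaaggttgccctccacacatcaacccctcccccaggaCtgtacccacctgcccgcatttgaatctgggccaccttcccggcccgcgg
IRF8 downstream anchor: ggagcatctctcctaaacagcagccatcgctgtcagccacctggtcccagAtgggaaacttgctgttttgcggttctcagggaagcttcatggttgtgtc
Over all 62869 CTCF peaks, 17.3% held the letters in these 300 bases, against 16 of the 104 CTCF peaks of the 6 genes (15.4%, Wilson 95% interval 9.70% to 23.5%). Among SMC1 peaks without a CTCF peak the share was 3.70% in the whole list and 8.73% (11 of 126, 4.94% to 15.0%) at these genes. No CTCF peak in the PRDM1 window held the letters.

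The 6 windows held 204 SMC1 peaks and 104 CTCF peaks, unevenly spread. BCL6 had the fewest of both, with 11 SMC1 and 10 CTCF peaks. IRF4 had the most, with 61 SMC1 and 32 CTCF peaks. PRDM1 stood apart in the balance of the targets, since 42 SMC1 peaks lay beside only 12 CTCF peaks. BACH2 had 28 and 12 in a longer window of 570 kb (400 kb for the others, because its gene body is 370 kb long), IRF8 had 40 and 27, and XBP1 had 22 and 11. Set against all coding genes counted the same way, whose median was 22 SMC1 peaks (quartiles 13 and 32) and 15 CTCF peaks (9 and 22), 99.8% of genes had fewer SMC1 peaks than IRF4, 91.9% fewer than PRDM1 and 89.3% fewer than IRF8. Only 19.2% had fewer than BCL6. For CTCF, 94.5% had fewer peaks than IRF4 and 87.2% fewer than IRF8, while PRDM1 ranked with BACH2 at 35.2%.

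**Figure D1:**
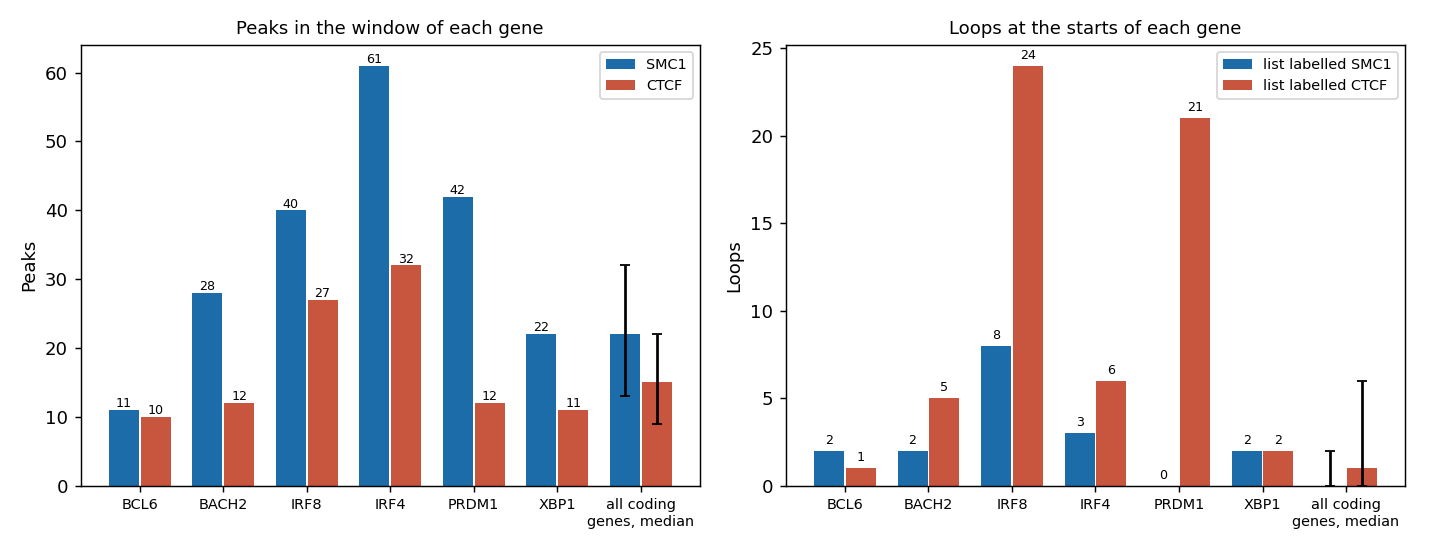
Peaks in the window (left) and loops at the transcript starts (right) of each gene, as counts in the pooled lists, with the median of all 19970 coding genes at the right of each panel and its quartiles as error bars. IRF4 has the most SMC1 peaks (61), and PRDM1 has 21 loops in the list labelled CTCF and 0 in the list labelled SMC1.

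Of the SMC1 peaks at the 6 genes, 78 of 204 overlapped a CTCF peak (38.2%, 31.8% to 45.1%), against 47.1% of all SMC1 peaks. PRDM1 was the lowest, with 8 of 42 (19.0%, 9.98% to 33.3%), and its interval lay below the share of the whole list. IRF8 was the highest, with 22 of 40 (55.0%, 39.8% to 69.3%). At IRF4 23 of 61 overlapped, at BACH2 9 of 28, at XBP1 10 of 22 and at BCL6 6 of 11, and the intervals of BCL6, IRF8, IRF4 and XBP1 include 47.1%, as does that of BACH2 (17.9% to 50.7%). Peaks of 1 window are neighbours and not independent, which these intervals do not cover. In the other direction, 83 of 104 CTCF peaks overlapped an SMC1 peak (79.8%, 71.1% to 86.4%), against 75.9% of the whole list. The SMC1 peaks with CTCF had a median −log10 q of 48.3 and those without it 11.7, compared with 34.1 and 7.40 over all SMC1 peaks.

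Loops are given by the label of their list, because the labels and the study's own loop numbers disagree: each list holds as many loops as the study gives for the other target. Every loop in the list labelled SMC1 (28012) had a CTCF peak at an anchor and 99.96% had an SMC1 peak, while every loop in the list labelled CTCF (80487) had an SMC1 peak and 95.35% a CTCF peak. The study states that a called loop has an anchor enriched for its target. In each list all loops meet this for the other target, and not all do for the target of the label. In loop numbers and in peaks, each list thus has what the study describes for the other target. Each listed loop is a pair of 5 kb bins with at least 12 read pairs and a false discovery rate under 0.01. A pair that is missing fell below a threshold or lacked the enriched anchor that the study requires. It was not measured as 0. The lists sum to 788356 read pairs labelled SMC1 and 2666327 labelled CTCF. The depth of each replicate is not part of them, but the study gives more reads in total for SMC1 than for CTCF.

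At the 6 genes 17 loops were labelled SMC1 and 59 were labelled CTCF, a ratio of 3.47 against 2.87 over all loops. Loops labelled SMC1 reached 5 of the 6 genes, all but PRDM1, where 35.1% of all coding genes had one. Loops labelled CTCF reached all 6 genes, where 59% of coding genes had one. At XBP1 none of these had an anchor within 5 kb of the canonical start, and they count through another transcript start. IRF8 (24) and PRDM1 (21) held 45 of the 59 loops labelled CTCF, and 97.5% and 96.4% of coding genes had fewer. IRF8 also had the most loops labelled SMC1 (8), more than 92.8% of coding genes. The distal ends were mostly away from other coding starts: 2 of 17 loops labelled SMC1 (both at DUSP22, a phosphatase gene next to IRF4) and 0 of 59 labelled CTCF ended within 5 kb of another coding gene's start. Among all loops with 1 anchor at a coding start, the other anchor also lay at one in 41.9% and 35.5%, where a start of the same gene counted too. The loops of 1 gene often share an anchor and are not independent.

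**Figure D2:**
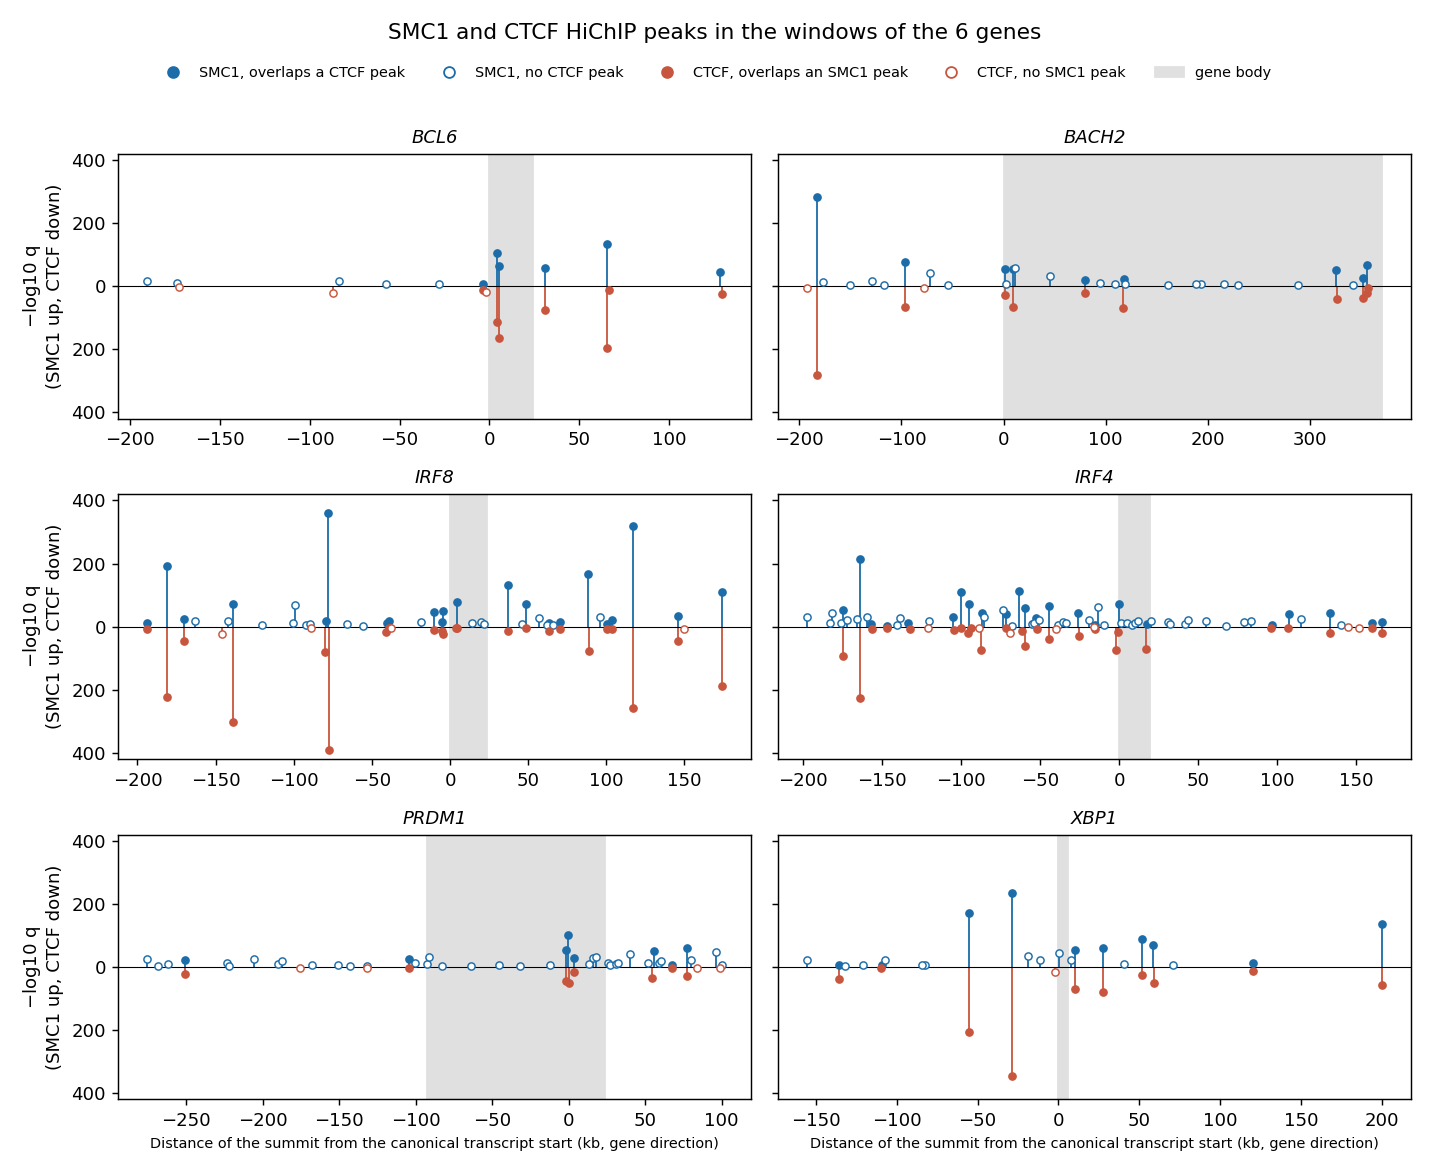
SMC1 peaks (blue, upward) and CTCF peaks (red, downward) of the 6 genes, by the distance of the summit from the start of the canonical transcript (kb, in the direction of the gene) and by −log10 q. Filled points overlap a peak of the other target, open points do not, and grey is the gene body. Most tall SMC1 peaks are filled and stand at a distance from the start, while PRDM1 has its tallest at the start (101).

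Peaks at the transcript starts were a different set from the tallest ones. With a summit within 1 kb of a transcript start counted, 5 of the 6 genes had an SMC1 peak there (62.6% of all coding genes) and 3 had a CTCF peak (46.7%). PRDM1 had 3 such SMC1 peaks, IRF8 had 2, and IRF4, BACH2 and XBP1 had 1 each. BCL6 had neither. The CTCF peaks at starts belonged to IRF4, IRF8 and PRDM1. In 5 of the windows the peak with the highest −log10 q lay 28.9 kb or more from the canonical start, in both lists, and PRDM1 was the exception.

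BCL6 had a pair of sites inside the gene rather than at its start. Its intron held CTCF peaks at 5.40 kb and 4.50 kb from the canonical start, with a −log10 q of 165 and 112. SMC1 peaks stood at the same places, with 64.6 and 105. The second of these CTCF peaks is the intronic sequence printed above, with its match on the plus strand. The highest peaks of the window lay 65.7 kb past the start in the direction of transcription, between genes and nearest to SST, the somatostatin gene, with a −log10 q of 135 for SMC1 and 197 for CTCF. Upstream of the gene no SMC1 peak passed a −log10 q of 17.4.

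All loops of BCL6 ran upstream from 1 bin, chr3:187740001-187745000, which holds the intronic CTCF pair in part or whole and ends just short of the canonical start. They were few and thin. The list labelled SMC1 held 15 read pairs over 175 kb (observed over expected, 4.87) and 13 over 400 kb (6.56). The list labelled CTCF held 12 over 925 kb (8.54), ending in an intron of LPP, a gene for a protein of cell adhesions. None had a match in the other list within 15 kb, and 12 is the smallest count that either list holds. The ends labelled SMC1 differed in their peaks, as the 175 kb end had an SMC1 peak of 9.82 and a CTCF peak of 2.50, and the 400 kb end had none.

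BACH2 had a single upstream partner in both lists. Its tallest peaks were the site printed above, 183 kb upstream and between genes, with a −log10 q of 284 (fold 8.39 over the local background) for SMC1 and 283 (fold 13.6) for CTCF. At the start itself the nearest strong peaks stood 1069 bp from a transcript start for SMC1 (53.3) and 1079 bp for CTCF (26.4), just outside the 1 kb limit. The 1 SMC1 peak counted at a BACH2 start lay at an internal start, with a −log10 q of 4.23 and no CTCF peak. From the bins at the start, 2 loops labelled SMC1 ran to the 183 kb site with 15 and 14 read pairs. The same bin pairs in the list labelled CTCF had 24 and 25. A further 3 loops labelled CTCF, with 16, 16 and 14 read pairs, ended in the same bin or the one beside it, and 1 of them began inside the gene, 275 kb away. All 7 BACH2 loops ran upstream. The gene body, although it is 370 kb long and held 20 SMC1 peaks, was enclosed by no loop of either list.

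IRF8 stood between 2 tall sites and contacted both. Upstream, 77.8 kb from the start, SMC1 had a −log10 q of 361 and CTCF 389.7, the highest of all peaks of the 6 genes in both lists. Downstream, 117 kb from the start, they had 320.4 and 259. Between that site and the gene, at 88.5 kb, an SMC1 peak of 168 with a lower CTCF peak of 78.8 lay in an intron of the long noncoding RNA ENSG00000285012. At its starts IRF8 had an SMC1 peak of 77.2, beside which the 2 CTCF peaks reached only 5.74 and 4.44, and a second SMC1 peak of 13.0 without CTCF.

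The loops of IRF8 joined these places. In the list labelled SMC1, 3 loops ran to the upstream site with 51, 37 and 30 read pairs, 3 ran to the 88.5 kb site with 35, 19 and 15, and 2 ran to the 117 kb site with 21 and 20. In the list labelled CTCF the largest was the contact to the 88.5 kb site from the bin just past the canonical start, chr16:85900001-85905000, with 253 read pairs (counting interval 223 to 286), and it was the largest of all 59. From the bin that holds the canonical start, 82 read pairs ran to the same site. Upstream, the largest had 87. The list labelled CTCF alone held 5 loops to sites 38.3 to 48.3 kb downstream, with 36 to 123 read pairs, near LINC02132 and inside ENSG00000285163. There SMC1 peaks of 131 and 71.8 lay beside CTCF peaks of 12.6 and 5.12. Counting all sites, 20 of the 24 loops labelled CTCF ran downstream, against 5 of the 8 labelled SMC1.

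IRF8 was also enclosed whole by loops, 34 labelled SMC1 and 40 labelled CTCF. Among the 40 were loops from chr16:85890001-85895000, with 47 and 26 read pairs, that also count among the 24 at its starts. At least 1 enclosing loop was found for 34.5% of coding genes in the list labelled SMC1 and for 57% in the list labelled CTCF. The one with the most read pairs joined the upstream site to the 88.5 kb site, over 165 kb, with 165 read pairs labelled SMC1 (141 to 192) and 504 labelled CTCF (461 to 550). Its observed over expected was 11.2 and 11.6, against 5.92 and 4.15 for the contact to the same downstream site from the bin just past the canonical start, and 3.72 and 4.33 from the bin that holds it.

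**Figure D3:**
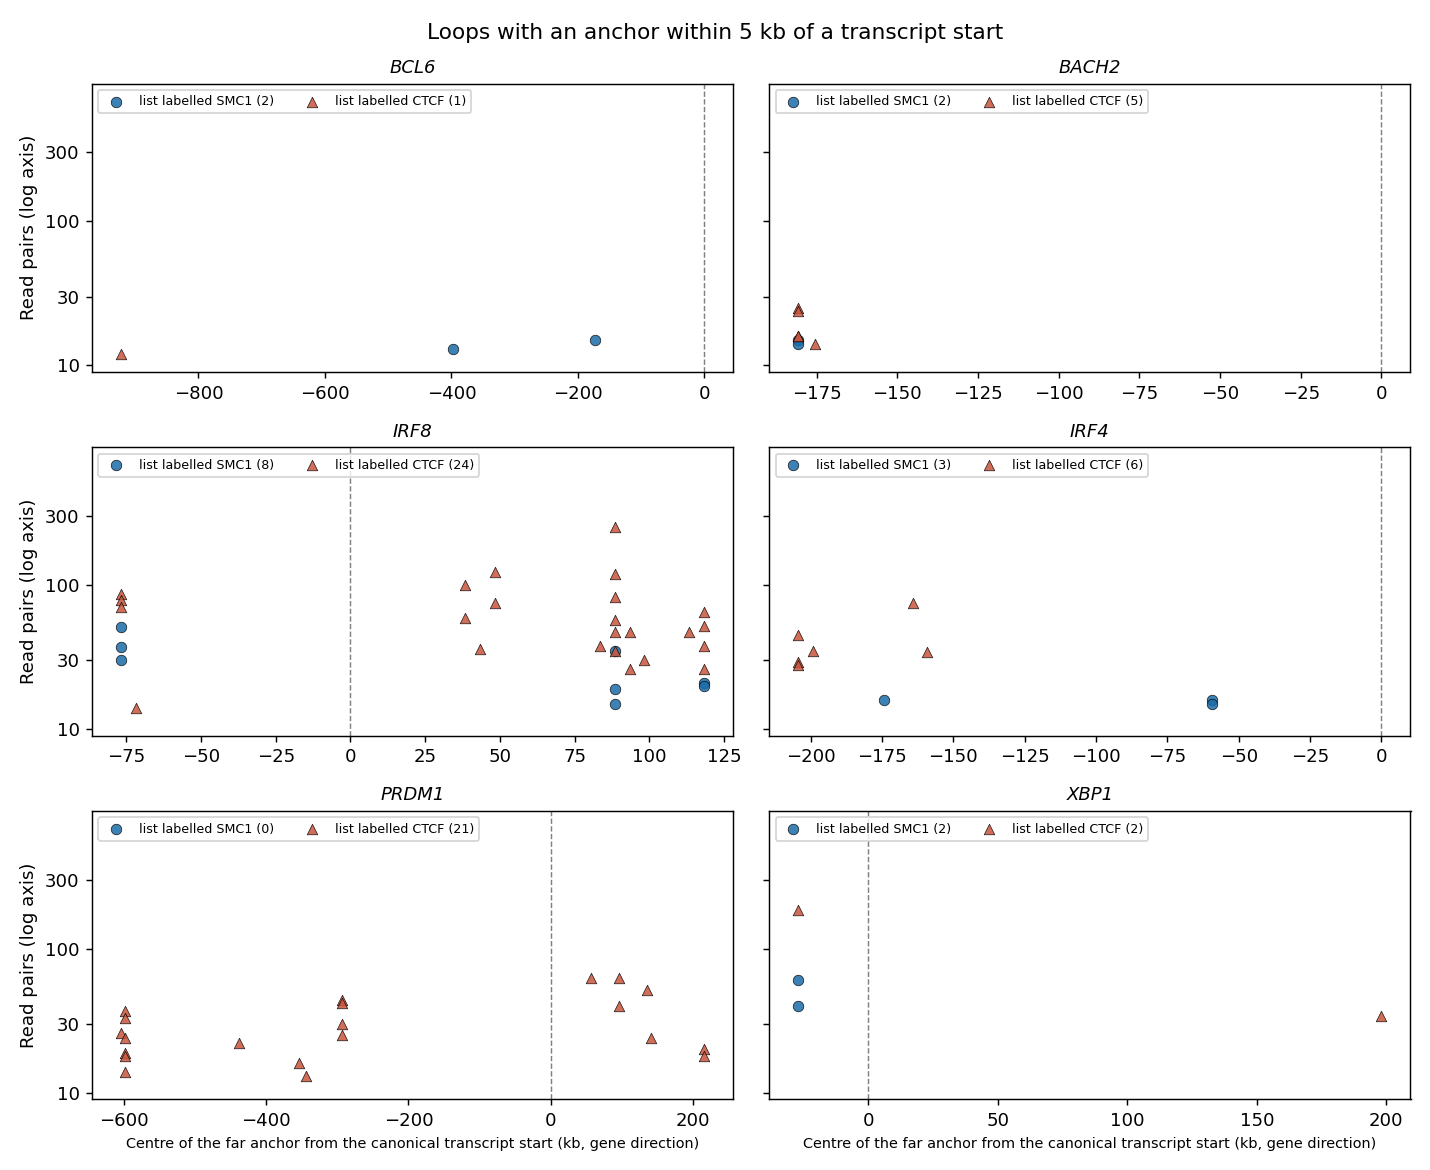
Read pairs of each loop (log axis) by the distance of its far anchor from the canonical transcript start (kb, in the direction of the gene), in the lists labelled SMC1 (blue circles) and CTCF (red triangles). Loops of BCL6, BACH2 and IRF4 all run upstream, IRF8 and PRDM1 have loops on both sides, and the PRDM1 panel has no blue circle.

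IRF4 had the densest window and loops to 1 side only. SMC1 peaks stood at 15.3 per 100 kb, against 2.75 at BCL6. The tallest pair lay 164 kb upstream, between genes, with a −log10 q of 216 for SMC1 and 226 for CTCF. At the start the SMC1 peak (72.1) had its summit 1 bp from an annotated start. The CTCF peak within 1 kb reached 17.5, and a taller one (73.2) stood 1.86 kb upstream. A CTCF peak of 72.1 without a start beside it lay near the 3′ end, 17.2 kb into the gene. The SMC1 peaks here were tall in significance but low in fold. With a −log10 q of at least 50, the 10 SMC1 peaks of the IRF4 window had a median fold of 3.63 over the local background, against 6.45 for all such SMC1 peaks, of which 5% lay below 4.16. In the other windows this median was 4.56 to 6.57. The fold is relative to the local background, and its relation to the density of peaks was not tested.

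All 9 IRF4 loops ran upstream, and the lists differed in where they ended. Of the loops labelled SMC1, 1 ended at the site printed above, 174 kb upstream of the canonical start (16 read pairs, observed over expected 4.42). The others ended in a single bin in DUSP22, 59.3 kb upstream of that start (15 and 16 read pairs). Loops labelled CTCF ended at the 164 kb site (75 and 34 read pairs, the second in the adjoining bin) and at LINC03066 (45, 35, 29 and 28). The LINC03066 ends lay 199 to 204 kb upstream of the canonical start. No bin pair was shared, and 1 of 3 and 2 of 6 had a match within 15 kb. The LINC03066 end held an SMC1 peak of 366 and a CTCF peak of 359.8, outside the 200 kb window. Each of these IRF4 loops labelled CTCF had an observed over expected of 2.01 to 2.58, under the median of 4.03 of its list.

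PRDM1 was the gene where the lists differed most, with 21 loops labelled CTCF and 0 labelled SMC1. Read by the study's own loop numbers in place of the labels, the 21 would come from the SMC1 data and the 0 from the CTCF data. Its canonical start lies 92.9 kb into the annotated gene, and the tallest peaks of the window stood at that start, with an SMC1 peak of 101 (fold 5.57) 128 bp from a transcript start and a CTCF peak of 51.5 (fold 6.46) overlapping it. A second pair stood 1.5 kb upstream (55.1 and 42.9). The other SMC1 peaks at PRDM1 starts were low and had no CTCF peak (9.55 and 9.30). Of the 42 SMC1 peaks 34 had no CTCF peak, and of these 13 lay upstream of PRDM1, 10 within it and 11 downstream, where ATG5 lies, an autophagy gene that overlaps the 3′ part of PRDM1 on the other strand.

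Of the PRDM1 loops, 14 ran upstream and 7 downstream. Downstream they ended in introns of ATG5. The ends lay 56.2 kb (63 read pairs), 96.2 kb (63 and 40) and 136 kb (52) past the canonical start, and the other 3 loops had 18 to 24. Both loops with 63 read pairs began at chr6:106100001-106105000, inside the gene and not within 5 kb of the canonical start. Upstream, 4 loops ended in an intron of the long noncoding RNA ENSG00000284999, 294 kb before the canonical start, with 44, 42, 30 and 25 read pairs. That end held an SMC1 peak of 74.6 and a CTCF peak of 49.4, which fell just outside the 200 kb limit on peaks. A further 7 loops, with 171 read pairs in all and spans of 500 to 615 kb, ended upstream in an intron of ENSG00000286084. The nearest coding gene there was PREP, a peptidase gene. Observed over expected was 3.09 to 8.19 in these long contacts and 2.04 to 3.86 in the downstream ones. The pair from the start bin had 37 read pairs where 5.09 were expected (7.26). The downstream loop with a span of 40 kb had 63 read pairs where 30.9 were expected. A larger loop labelled CTCF enclosed the gene between the ENSG00000284999 site and an ATG5 intron, with 35 read pairs over 430 kb. All 21 loops had an SMC1 peak at an anchor and a CTCF peak at one, and none had a match labelled SMC1 within 15 kb.

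XBP1 contacted the site printed above, 28.9 kb upstream, from the far side of the gene. That site had an SMC1 peak of 235 and a CTCF peak of 347 (fold 15.2). At the start of XBP1 an SMC1 peak of 43.2, 12 bp from a transcript start, had no CTCF peak. The CTCF peak nearest to the 3′ end (70.4) lay 10.03 kb from the canonical start, past the end of the gene. The bin that holds part of it was joined to the upstream site over 35 kb, with 61 read pairs labelled SMC1 (46.7 to 78.4) and 187 labelled CTCF (161 to 216), so that this contact spans the gene. From the bin that holds most of the gene body, a loop labelled SMC1 ran to the same site with 40 read pairs, and no loop labelled CTCF did. The second loop labelled CTCF ran 190 kb the other way into an intron of TTC28, with 34 read pairs. XBP1 was enclosed by 10 loops labelled SMC1 and 20 labelled CTCF. The one with the most read pairs joined the TTC28 intron to the upstream site over 225 kb, with 46 and 182 read pairs and an observed over expected of 10.8 and 12.1.

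Matches between the lists were uneven across the genes. Within 15 kb at both anchors, 13 of 17 loops labelled SMC1 had a match labelled CTCF (76.5%, 52.7% to 90.4%), against 91.7% of the whole list, and 26 of 59 the other way (44.1%, 32.2% to 56.7%), against 53.4%. The 4 without a match belonged to BCL6 and IRF4. All 8 IRF8 loops labelled SMC1 had one, and 19 of its 24 labelled CTCF.

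Exactly the same bin pair was a loop in both lists in 10 cases, 7 at IRF8, 2 at BACH2 and 1 at XBP1. The list labelled CTCF had 1.60 to 7.23 times the read pairs there, against 3.38 for the sums of the lists. These pairs were chosen for being loops in both lists, so pairs with a low observed over expected in 1 list are left out. Over all loops of the 6 genes, the lowest value was 2.04 labelled SMC1 and 2.01 labelled CTCF. How close the lists come at these pairs is thus partly set by the choice. Observed over expected was higher in the list labelled SMC1 in 6 of the 10, and the counting intervals overlapped in 9. The exception was the IRF8 contact over 115 kb to the downstream site, with 4.43 (2.74 to 6.78) labelled SMC1 and 2.06 (1.59 to 2.63) labelled CTCF. With replicates pooled, no test of this difference was possible.

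**Figure D4:**
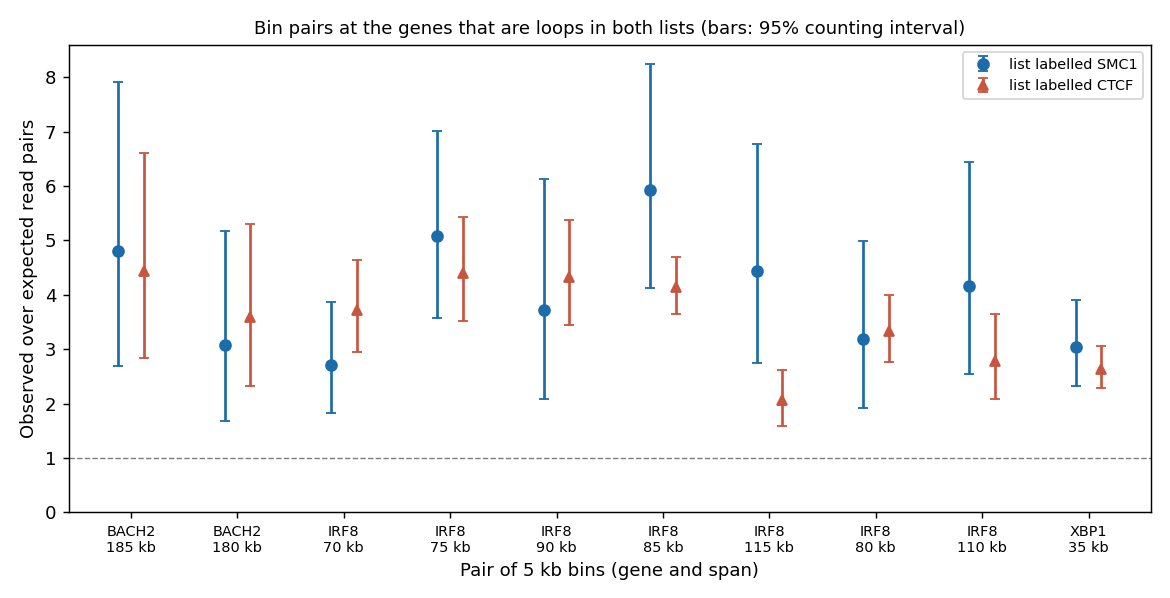
Observed over expected read pairs at the 10 bin pairs of these genes that are loops in both lists, labelled SMC1 (blue circles) and CTCF (red triangles), with 95% counting intervals; the dashed line is the expected number. The intervals overlap in 9 of the 10 pairs, and the 115 kb IRF8 pair is the exception.

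Other genes of the same programmes gave a frame for these values. Among 11 further germinal centre genes (such as the B cell factors PAX5 and EBF1), 10 had an SMC1 peak at a start and 7 a CTCF peak, 7 had a loop labelled SMC1 and 10 a loop labelled CTCF. Among 12 further plasma cell genes (such as SDC1, which encodes the surface marker CD138, and ERN1, whose product splices XBP1 RNA), these numbers were 9, 5, 8 and 11. Over all coding genes the shares, in the same order, were 62.6%, 46.7%, 35.1% and 59%. Their loop counts reached 21 labelled SMC1 at POU2AF1 and at ERN1, and, labelled CTCF, 26 at EBF1 and POU2AF1 and 27 at ERN1. The median number of loops labelled CTCF was 9 for the germinal centre genes and 5.5 for both the plasma cell genes and the 6 regulators. For all coding genes it was 1 (quartiles 0 and 6). A gene with no loop labelled SMC1 but several labelled CTCF was not limited to PRDM1. MEF2C had 0 and 9 and GNA13 had 0 and 6, examples picked after their values were seen.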

How the data were processed

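SMC1 FA-EGS HiChIP and CTCF FA HiChIP of the HG00731 line were analysed from 1 peak list and 1 loop list per target, each pooled by the authors over 2 replicates. Reads had been mapped by the authors with BWA-MEM on hg38, and peaks called with MACS3 3.0.1 (version per the labels) without an input. They deposited the fold of each peak over its local background, a ratio, and its significance as −log10 q. For loops, called with MAPS, raw counts of read pairs per pair of 5 kb bins were deposited, with the expected number (a model score), a q-value and a −log10 P of the cluster.

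From these files, peaks and loops were assigned to genes of GENCODE release 44 on chromosomes 1 to 22 and X. Peaks elsewhere (509 SMC1 and 686 CTCF) were left out. Peaks overlapped when they shared at least 1 bp, and loops matched within 15 kb at both anchors. Shares carry Wilson intervals and counts exact Poisson intervals, both at 95%. Chromosome lengths of the hg38 sequence used were checked against the coordinates. The named sites are all peaks within 1 kb of a transcript start, the tallest peak of each window and target, up to 5 loops with the most read pairs and the longest, with the genes at their ends. The other sites named, the loops that enclose a gene and the folds at high significance, were chosen after their values were seen. The 6 genes, the other gene lists and the counting rules were chosen with earlier results of these data known. A gene of the germinal centre list is not reported here. Counting and matching were tested on simulated data. Alternatives were other windows, distances, thresholds and tolerances, and an exchange of the loop lists. No test between groups was made. Python 3.11.15, NumPy 2.4.6, pandas 2.3.3, SciPy 1.17.1 and Matplotlib 3.10.9 were used.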

Additional observations from a re-analysis of the deposited data

How the results depend on the processing

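Of 35 alternative values, 21 were classed as keeping to the reported ones and 14 as moved. The class of kept values was wide. It took in 136 SMC1 peaks in place of 204 (−log10 q of at least 10). It also took in 46 loops labelled CTCF in place of 59 (at least the median read pairs). A share of 58.8% of loops labelled SMC1 matched without tolerance, in place of 76.5%, was classed as kept too. Within 100 kb of the gene start the windows held 132 SMC1 and 66 CTCF peaks, and a −log10 q of at least 10 left 64 CTCF peaks. Loops whose anchor holds the transcript start itself numbered 11 labelled SMC1 and 34 labelled CTCF, and counting from the median read pairs of the list upward left 7 labelled SMC1. When the labels of the loop lists were swapped, the counts became 59 for SMC1 and 17 for CTCF. Counting only the 5′ end of each gene, 3 genes had an SMC1 peak and 1 a CTCF peak at the start. With summits within 5 kb, all 6 had a CTCF peak. The share of SMC1 peaks with CTCF was 25% with summits within 150 bp and 24.02% with at least 50% of the peak overlapped, and it was 34.1% to 43.2% with each gene left out in turn, an alternative chosen after the data were seen. Without tolerance, 16.9% of the loops labelled CTCF had a match. In the exchange the lists themselves changed places, and in the other values that moved a different rule admitted fewer or more sites. No paired analysis was possible because the replicates were pooled in the lists, and for the same reason no replicate could be left out. The depth of the replicates is not part of the lists, and pairs of bins under 12 read pairs are not listed.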

Other observations

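The peaks just inside and outside the 200 kb limit show how much the limit decides. At XBP1 the outermost SMC1 peak counted lay 199.7 kb from the gene start, with a −log10 q of 137, and is the TTC28 anchor. At PRDM1 an SMC1 peak of 74.6 lay 200.1 kb away and was left out, and at IRF4 one of 76.1 lay 201 kb away and was left out. For CTCF, the first peaks outside had 49.4 at PRDM1 and 97.2 at IRF4.

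By place, 110 of the 204 SMC1 peaks lay in introns, 75 between genes and 19 in exons or untranslated exons, and 49 and 44 of the 104 CTCF peaks lay in introns and between genes.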
